A study of Mus musculus with 13 samples.

Results

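The 8 genes Edil3, Wdfy3, Lct, Nyx, Serpinb1a, Enpp3, Eqtn and Rnase6 were chosen because they rose by large amounts in mouse pre-B cells that carried wild-type Ikaros for 48 h. They are 8 of the 18194 genes with a symbol of their own on the Mouse Genome array and of 19938 on the Gene 1.0 ST array. Every probe set annotated to 1 of these symbols was used, which gave 24 of 45101 probe sets on the Mouse Genome array and 10 of 35556 on the Gene 1.0 ST array. The 48 h values chose the genes, so those values are given as a description with no test, and the values after 2 h and 6 h, which took no part in the choice, are tested.

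Ikaros, the product of Ikzf1, is a zinc-finger protein of lymphoid development that binds DNA at sites with the core GGGAA. All arrays came from B3, 1 mouse pre-B cell line, transduced with MSCV retroviruses that also express GFP from an internal ribosomal entry site. At 48 h after infection, HA-tagged wild-type Ikaros (2 arrays) was set against HA-tagged 159A (2 arrays), a form of Ikaros that lacks normal DNA binding. In the inducible design, HA-Ikaros fused to ERt2, an estrogen receptor hormone-binding domain, was activated with 4-hydroxytamoxifen (OHT) for 2 h (3 arrays) or 6 h (3 arrays), and cells with the ERt2 vector received OHT for 6 h (3 arrays). The vector was measured at 6 h only, so the 2 h comparison sets different exposure times side by side. No array of vector or untransduced cells at 48 h and none of Ikaros-ERt2 cells without OHT was analysed here. "Switched on" therefore means higher with wild-type Ikaros than with 159A. In these bulk samples, more cells expressing a gene and more RNA per cell cannot be told apart. Sorting on GFP is not given in the sources used here.

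The proteins of these genes are known from unlike settings. Edil3 is a secreted integrin ligand of vessels and other tissues, Nyx (nyctalopin) is a leucine-rich repeat protein of retinal bipolar cells, and Lct (lactase) splits milk sugar at the intestinal brush border. Eqtn (equatorin) is a protein of the sperm acrosome. Wdfy3 (also called Alfy) is a large BEACH-domain protein that brings protein aggregates to autophagy. Serpinb1a inhibits the serine proteases of neutrophils, Enpp3 cleaves extracellular nucleotides and marks basophils and mast cells, and Rnase6 is an antimicrobial ribonuclease. They lie on 7 chromosomes: Lct on 1, Eqtn on 4, Wdfy3 on 5, Enpp3 on 10, Edil3 and Serpinb1a on 13, Rnase6 on 14 and Nyx on X.

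The transduced gene and the cell identity were checked first. Ikzf1 read 13.22 to 13.39 on the 6 Ikaros-ERt2 arrays and 9.16, 9.25 and 9.39 on the vector arrays (deposited log2 values). The labels of vector replicate 1 disagree, with the vector in the title and the inducible construct in a field on the transduced gene, and its Ikzf1 value of 9.16 lay with the other vector arrays. At 48 h, 1 Ikzf1 probe set read 12.00 and 12.08 with Ikaros and 11.82 and 11.61 with 159A. The other read 4.11 and 4.77 with Ikaros and 12.83 and 12.73 with 159A, so the probe sets disagreed. The 7 measured B-lineage markers were above the floor on every 48 h array, but their levels differed between the groups. With Ikaros, 2 were called higher and 2 lower (limma, adjusted p under 0.05), beside 6.38% and 8.47% of all tested genes. Cd79b stood at 14.74 with Ikaros against 12.62 with 159A, and Pax5 at 9.88 against 8.63. Vpreb1 stood at 10.82 against 14.74, and Igll1 at 8.97 against 14.89. On the Mouse Genome array, 36.7% of values lay within 0.01 of the lowest value, 2.19. A group whose mean is within 1 log2 unit of that value, at most 3.19, is called near the floor, and a fold over it is a lower bound.

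Upstream sequences of 4 of the 8 genes were available, and they are shown because Ikaros binds DNA at a short core. Each is the stretch of 250 bases before an annotated start, from RefSeq on GRCm38.p6, written 5′ to 3′ on the gene's strand, with GGGAA or its reverse complement TTCCC in capitals. The windows are chr1:128328319-128328568 on the minus strand for Lct, chrX:13460840-13461089 on the plus strand for Nyx, chr10:24836196-24836445 on the minus strand for Enpp3 and chr14:51123658-51123907 on the plus strand for Rnase6.
Lct: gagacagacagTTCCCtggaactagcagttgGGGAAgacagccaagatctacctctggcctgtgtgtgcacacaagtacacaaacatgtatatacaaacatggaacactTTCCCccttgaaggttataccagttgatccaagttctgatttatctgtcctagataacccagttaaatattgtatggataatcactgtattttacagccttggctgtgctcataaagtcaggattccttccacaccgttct
Nyx: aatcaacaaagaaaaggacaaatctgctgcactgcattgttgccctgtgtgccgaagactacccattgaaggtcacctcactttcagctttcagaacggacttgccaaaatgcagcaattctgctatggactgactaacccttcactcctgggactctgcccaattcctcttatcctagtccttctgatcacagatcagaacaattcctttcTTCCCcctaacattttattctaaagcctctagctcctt
Enpp3: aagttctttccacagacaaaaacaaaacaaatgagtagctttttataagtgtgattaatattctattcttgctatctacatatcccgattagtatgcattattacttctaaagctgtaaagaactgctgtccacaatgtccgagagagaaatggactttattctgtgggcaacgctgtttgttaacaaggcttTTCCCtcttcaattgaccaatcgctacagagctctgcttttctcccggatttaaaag
Rnase6: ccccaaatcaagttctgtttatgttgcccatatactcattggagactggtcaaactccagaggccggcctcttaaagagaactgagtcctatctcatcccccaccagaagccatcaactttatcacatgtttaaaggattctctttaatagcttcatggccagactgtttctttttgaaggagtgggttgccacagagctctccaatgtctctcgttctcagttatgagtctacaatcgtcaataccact
The Lct window holds the core 3 times, 239, 219 and 141 bases before the start. The Nyx window holds it once, 38 bases before the start, and the Enpp3 window once, 57 bases before. None of the 3 Rnase6 windows, which belong to 3 annotated starts, holds it. The longer form TGGGAA (reverse complement TTCCCA), which contains the core, is in none of these windows. Of all 32851 windows of this length, 56.2% hold the core and 21.6% hold the longer form on either strand, so a core in the window is common. A match is a description of letters and not of binding, which was not measured on these arrays.

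At 48 h the secreted and cell-surface proteins were led by Edil3. Its brightest probe set read 13.04 and 14.12 with Ikaros and 3.30 and 2.40 with 159A, a log2 difference of 10.73 and at least a 1290-fold rise. A second Edil3 probe set read 8.64 and 8.54 against 2.19 and 2.44, and another read 6.99 and 8.58 against 2.44 and 2.19. All 3 were high on both Ikaros arrays, and their mean over the 159A arrays was near the floor. Their bounds ranged from at least 24.1-fold to at least 1290-fold. The other 3 of 6 Edil3 probe sets were at 2.19 or 2.20 on all 4 arrays.

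Nyx had 1 probe set on this array. It read 10.95 and 10.02 with Ikaros and 2.95 and 3.90 with 159A, a 133-fold difference (log2 7.06). One 159A array lay near the floor, so this size is not exact. Lct, also with 1 probe set, read 10.63 and 10.02 with Ikaros and 3.07 and 3.28 with 159A, at least 136-fold higher. Both genes were at or close to the floor with 159A and bright with Ikaros, with no overlap between the arrays.

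The 5 Enpp3 probe sets fell into a bright and a dark class. The one with the highest mean read 10.33 and 10.47 with Ikaros and 4.89 and 2.87 with 159A, a 92.1-fold difference (log2 6.52). The second 159A array lay under the floor limit, so this size is not exact either, and it is 6.36 with values raised to that limit. Its 159A arrays differed more between themselves (SD 1.43, n = 2) than those of any other of the 24 probe sets, and its Ikaros arrays little (SD 0.10). A second set read 10.43 and 10.59 against 3.59 and 3.25 (136-fold), and another read 9.04 and 9.13 against 3.87 and 3.37 (44.0-fold). The 3 bright sets all placed Enpp3 on the high side in both Ikaros arrays. The other 2 were at 2.19 throughout.

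Among the proteins that act inside cells, Wdfy3 changed most. Its brightest probe set read 10.82 and 10.25 with Ikaros and 2.36 and 2.31 with 159A, at least 162-fold higher. A second read 8.09 and 7.03 against 2.40 and 2.44, at least 20.6-fold higher. The other 3 of 5 Wdfy3 sets lay between 2.20 and 2.24 on every array. Serpinb1a read 10.39 and 10.47 with Ikaros and 3.25 and 3.70 with 159A, a 124-fold difference. Its other probe set read 7.66 and 8.08 against 2.39 and 2.65, at least 25.6-fold higher. Serpinb1a has close paralogs whose transcripts its probes could share. The paralog Serpinb1b was at 2.19 in both groups, and Serpinb1c had no probe set of its own on this array, so shared signal was not tested.

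Eqtn had the least even probe sets. The brightest read 8.13 and 9.72 with Ikaros and 2.79 and 3.30 with 159A, at least 51.2-fold higher. A second read 4.57 and 5.59 against 2.90 and 2.34, at least 3.70-fold higher. In the last one, only Ikaros replicate 2 was well above the floor, at 5.37, beside 2.51 in replicate 1 and 2.19 and 2.25 with 159A. Rnase6, the secreted ribonuclease, had 1 probe set, which read 8.65 and 7.36 with Ikaros and 2.19 and 2.25 with 159A, at least 28.1-fold higher. Ikaros replicate 2 was the higher array for Eqtn and the lower one for Rnase6.

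**Figure D1:**
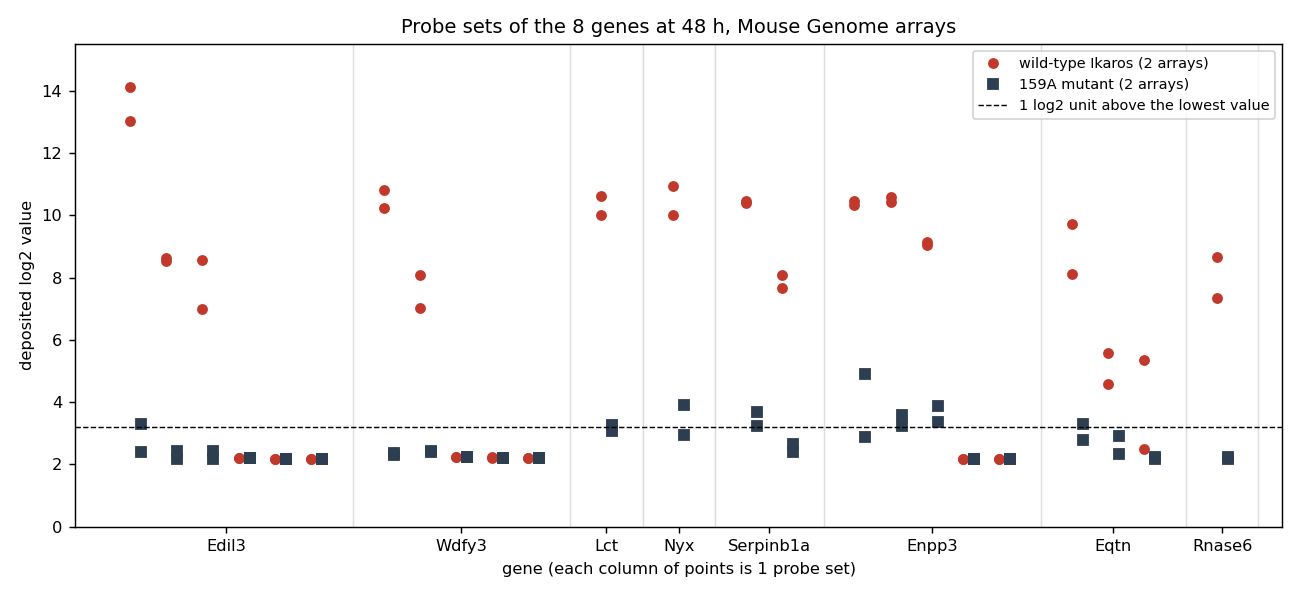
Deposited log2 values of all 24 probe sets of the 8 genes on the 4 Mouse Genome arrays (vertical axis), with each column of points 1 probe set, circles for wild-type Ikaros and squares for 159A (2 arrays each). The dashed line is the floor limit of 3.19, and 16 probe sets are higher with Ikaros while 8 lie near the floor in both groups.

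In all, 16 of the 24 probe sets were higher on both Ikaros arrays than on either 159A array, against 14% of all probe sets on the array, and the choice of the genes fixes this count. The plot of the 24 probe sets by array shows the split: the 8 sets near the floor in both groups belong to Edil3 (3), Wdfy3 (3) and Enpp3 (2). Each of the 8 genes had at least 1 set that rose, and 5 genes had more than 1. The sizes within a gene varied, from 5.47 to 10.73 among the risen Edil3 sets and from 1.72 to 5.88 among those of Eqtn. The size of a rise thus depended on the probe set read, and the cause was not tested.

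With the probe set of highest mean standing for each gene, the 8 log2 differences ran from 5.78 to 10.73 with a median of 7.01, while the median of all 10916 tested genes was 0. By that difference the 8 genes held 8 of the first 10 ranks. Just inside the lowest rank were Enpp3 (6.52), Eqtn (5.88) and Rnase6 (5.78), with the non-member Il2ra at 6.48. Just outside were Patj (5.73), Jchain (5.58) and Fetub (5.44). Across the whole comparison, 6.38% of tested genes were called higher (limma, Benjamini-Hochberg adjusted p under 0.05) and 8.47% lower, and nothing is read from the calls of the 8 genes themselves.

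The 5 genes with the nearest profile over the 4 arrays, by Euclidean distance after centring on 159A, were Iglv1 (0.75), Il2ra (0.83), Patj (1.91), Jchain (1.99) and Fetub (2.22). Iglv1 is an immunoglobulin lambda segment, Il2ra is the alpha chain of the interleukin-2 receptor, and Jchain encodes the chain that joins polymeric immunoglobulins. Il2ra read 9.72 and 8.68 with Ikaros and 2.76 and 2.69 with 159A. Iglv1 read 10.06 and 9.94 against 2.53 on both 159A arrays in 1 probe set, while its other sets differed by 0.58 and 0.09. Of these, Il2ra and Fetub were tested in the inducible design, as given below with the 8 genes.

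On the Gene 1.0 ST arrays, the 8 genes stayed at about the vector level after 2 h and 6 h, and no change passed a test. Edil3 read 3.73, 3.85 and 3.88 with the vector, 3.88 on all 3 arrays at 2 h, and 3.88, 3.88 and 3.94 at 6 h. Lct read 5.18, 5.24 and 5.38 with the vector, 5.24, 5.20 and 5.09 at 2 h, and 5.32, 5.24 and 5.56 at 6 h. Enpp3 read 4.45, 4.68 and 4.40 with the vector, 4.45, 4.47 and 4.37 at 2 h, and 4.45, 4.55 and 4.21 at 6 h. For these genes the vector and Ikaros-ERt2 arrays overlapped at both times.

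Wdfy3 was equally flat in both of its probe sets. The brighter read 5.37 on all 3 vector arrays, 5.29, 5.42 and 5.29 at 2 h, and 5.41, 5.37 and 5.54 at 6 h. The dimmer stayed between 4.09 and 4.50 on all 9 arrays. The 2 Nyx sets sat at different levels, 7.73 to 8.19 and 3.77 to 4.23, and neither separated the groups. The first Nyx set read 8.03, 8.19 and 8.03 with the vector, 7.91, 8.12 and 7.83 at 2 h, and 8.03, 7.73 and 8.14 at 6 h.

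Serpinb1a read 3.72, 3.78 and 3.75 with the vector, 3.84, 3.79 and 3.79 at 2 h, and 3.68, 3.95 and 3.78 at 6 h. Eqtn lay between 3.84 and 4.06 on all 9 arrays. Rnase6 read 4.76, 4.77 and 4.70 with the vector, 4.55, 4.66 and 4.49 at 2 h, and 4.70, 4.69 and 4.85 at 6 h. Rnase6 at 2 h thus lay below all vector arrays, and Serpinb1a at 2 h lay just above them. At 6 h, all 10 probe sets overlapped with the vector.

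**Figure D2:**
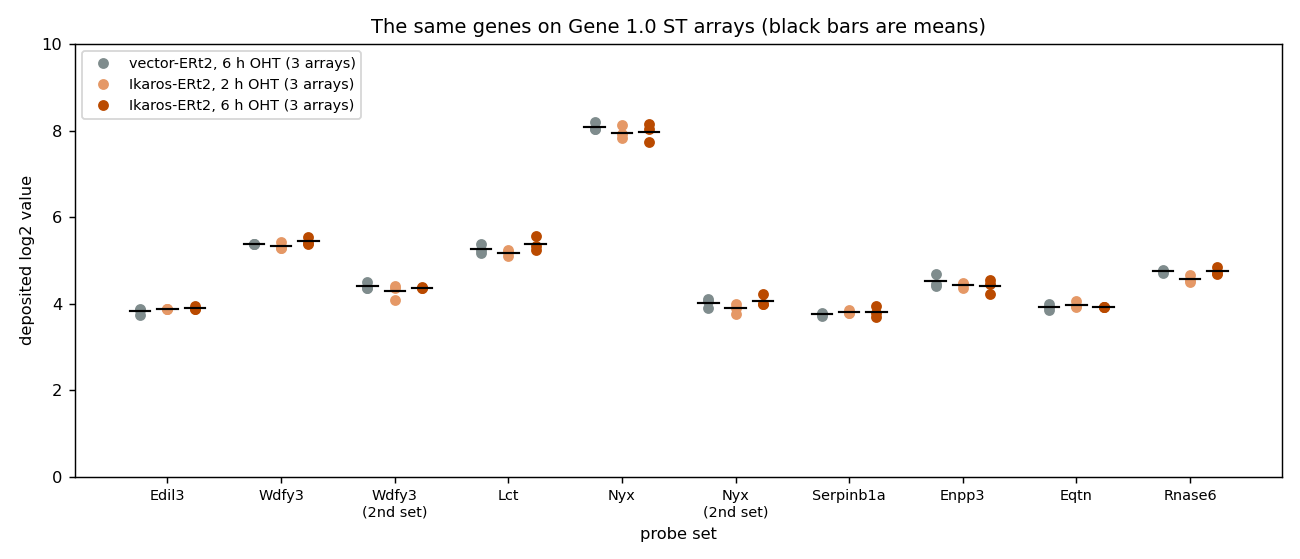
Deposited log2 values of the 10 probe sets of the 8 genes on the 9 Gene 1.0 ST arrays (vertical axis), with points for arrays and black bars for the mean of 3 arrays. Each probe set keeps nearly the same level in vector-ERt2 cells and in Ikaros-ERt2 cells after 2 h and 6 h of OHT, with a range over all 9 arrays of 0.20 to 0.47.

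Tests of these values called no change. Only Wdfy3, Lct and Nyx passed the filter on low values, and 0 of these 3 were called at 2 h, where 1.86% of all tested genes were, with 0 at an unadjusted p under 0.05 (lowest adjusted p = 0.693, limma). At 6 h, 0 of 3 were called, against 5.78% of all genes, with 0 at an unadjusted p under 0.05 (lowest adjusted p = 0.667). For 6 h over 2 h, 0 of 3 were called, against 0.903% of all genes, again with 0 at an unadjusted p under 0.05 (lowest adjusted p = 0.396). The other 5 genes lay in the lowest 40% and were tested only in the fit of every probe set.

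That fit holds all 10 probe sets and called 0 of them at each time, beside 0.118% of all probe sets at 2 h, 0.737% at 6 h and 0% for 6 h over 2 h. At an unadjusted p under 0.05 there was 1 of 10 at 2 h, 0 at 6 h and 1 for 6 h over 2 h, all of Rnase6. Rnase6 was lower than the vector at 2 h by -0.18 ± 0.07 (log2 change ± SE, n = 3 each), with adjusted p = 0.505 in limma. From 2 h to 6 h it differed by 0.18 in the other direction (adjusted p = 0.521 in limma). Neither difference passed the correction.

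The overlap of the arrays was counted as well, beside the share over all probe sets. At 2 h, 1 of 10 was higher on every Ikaros-ERt2 array (Serpinb1a, by 0.06), against 5.54% of all probe sets, and 1 was lower (Rnase6), against 7.19%. At 6 h it was 0 of 10 in either direction, against 5.68% higher and 7.97% lower. For 6 h over 2 h, 1 was higher (Rnase6), against 4.88%, and 0 were lower, against 5.44%.

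**Figure D3:**
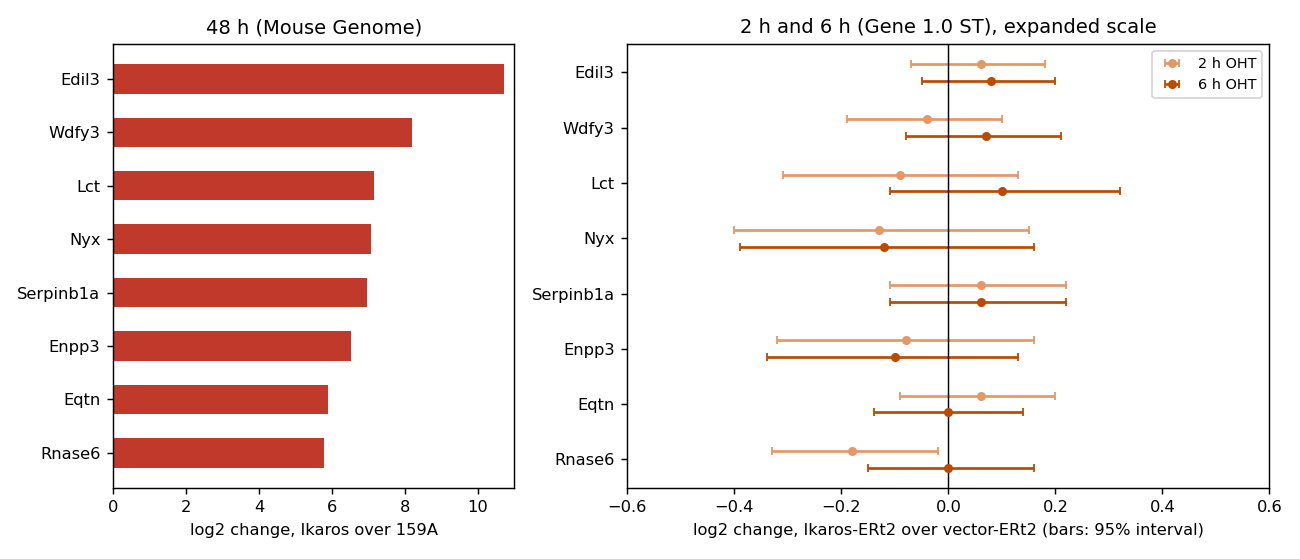
Log2 change of the 8 genes at 48 h (left, Ikaros over 159A, bars from 0, 2 arrays per group, no test) and at 2 h and 6 h of OHT (right, Ikaros-ERt2 over vector-ERt2, points with 95% intervals of the fit, 3 arrays per group). The 2 panels have different scales: 48 h differences reach 10.73, while those at 2 h and 6 h lie between -0.18 and 0.10.

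The plot of the changes by time sets these small differences beside those at 48 h. The log2 changes ran from -0.18 to 0.06 at 2 h and from -0.12 to 0.10 at 6 h. The highest upper limit of a 95% interval was 0.22 at 2 h (1.16-fold, Serpinb1a) and 0.32 at 6 h (1.25-fold, Lct). For 6 h over 2 h it was 0.41 (1.33-fold, Lct). Standard errors were 0.06 to 0.12. These limits hold for the arrays as measured. At the full precision deposited, Edil3 had an identical value on 6 of 9 arrays and Wdfy3 and Eqtn on 4, and no Gene 1.0 ST array stood out as high in any of these genes, so whether its probes for them respond was not tested. The 2 array types were normalized separately, and levels are not compared between them.

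Other genes with large rises at 48 h were looked at in the same way, a comparison chosen after the data were seen. Of the 100 largest 48 h rises, 92 were not among the 8 genes, and 60 of the 84 on the Gene 1.0 ST array were tested. Of these 60, 17 were higher and 1 was lower at 6 h (28.3% higher, median 0.30), while 2.58% of all tested genes were higher and 3.2% lower. Of the 609 tested genes among all others called higher at 48 h, 84 were higher at 6 h (13.8%). The difference between these shares and 0 of 3 was not tested. Il2ra, close to the 8 genes at 48 h, fell by 0.78 at 2 h (adjusted p = 0.00452, limma) and by 0.75 at 6 h (adjusted p = 0.00193). Fetub differed by 0.85 at 2 h (adjusted p = 0.208) and by 0.42 at 6 h (adjusted p = 0.551), neither called.

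Relatives of the 8 genes by family or partnership showed no common direction at 48 h. Of 109 listed, 89 were on the Mouse Genome array, 45 were tested, 4 were higher (8.89%, against 6.38% of all genes) and 7 were lower (15.6%, against 8.47%). Their median change was 0.14, beside 0 for all genes. The 44 that were not tested were near the floor in both groups. All of these calls, and all others at 48 h, were lost when any 1 of the 4 arrays was left out and with the replicate number as a block.

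Among the partners of Edil3, the integrin subunit Itgav rose 2.80-fold (12.33 and 12.32 with Ikaros, 10.75 and 10.94 with 159A, adjusted p = 0.0237, limma), though its 4 dimmer probe sets differed by only 0 to 0.53. Itgal, a leukocyte integrin subunit, fell 5.20-fold, from 6.59 and 6.60 with 159A to 4.22 on both Ikaros arrays (adjusted p = 0.0153, limma). Its other probe set was at 2.19 on all 4 arrays. In the inducible design Itgal was higher by 0.61 at 2 h (adjusted p = 0.0936, limma) and 0.58 at 6 h (adjusted p = 0.0656), neither called. Mfge8, the other ligand of the Edil3 kind, stood at 10.25 against 9.31 and was not called (adjusted p = 0.0712). Thus 1 of 6 tested partners was higher and 1 lower.

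The Wdfy3 list had the most tested members, 19 of 20 measured, with 2 higher, 0 lower and a median of 0.84. Nbr1, an autophagy receptor, rose 2.05-fold (adjusted p = 0.0269, limma), and a second, dimmer Nbr1 set differed by 0.34. Map1lc3b, a coat protein of autophagosomes, rose 2.25-fold (adjusted p = 0.0273), and its 4 probe sets were higher by 1.17 to 2.69. The BEACH-domain genes Wdfy4 (-0.39) and Nbeal1 (1.12) were not called.

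At 6 h, Lyst, another BEACH-domain gene, and Sqstm1, an autophagy receptor, were the called members of that list. At 48 h neither was called, with differences of 1.31 for Lyst and 0.85 for Sqstm1. Lyst rose from 6.83, 6.84 and 6.76 with the vector to 7.36, 7.27 and 7.26, a log2 change of 0.48 (adjusted p = 0.00245). Sqstm1 rose by 0.34 (adjusted p = 0.0187). The Sqstm1 call was lost without Ikaros-ERt2 6 h replicate 1 (0.056) or 2 (0.0511) and without vector replicate 2 (0.0808) or 3 (0.066), each an adjusted p from limma.

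The Serpinb1a list moved both ways. Serpinb6a rose 4.15-fold (9.72 and 9.48 against 7.55 and 7.54, adjusted p = 0.0221, limma). Serpinb6b fell 8.35-fold (6.79 and 6.82 against 9.86 and 9.88, adjusted p = 0.0153). Of the proteases that Serpinb1a inhibits, Prtn3 fell from 8.29 and 7.96 to 3.18 and 3.82 (24.6-fold, adjusted p = 0.0237), while Elane and Ctsg were near the floor in both groups.

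Enpp3 rose while its relative Enpp6 fell. Enpp6, a choline-specific phosphodiesterase, read 2.73 and 3.46 with Ikaros and 9.18 and 10.16 with 159A, at least 81.3-fold lower (adjusted p = 0.0274, limma), and its second probe set fell as well (-3.97). Alpl, an alkaline phosphatase, fell 6.37-fold (adjusted p = 0.0347). In the separate inducible design, both were also lower than with the vector at 6 h. The changes were -0.84 for Enpp6 (adjusted p = 0.00131, limma) and -0.98 for Alpl (adjusted p = 0.00193). The nucleotidase Entpd1 stood at 9.27 against 7.26 and was not called (adjusted p = 0.101).

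Of 3 tested relatives of Rnase6, 2 fell. Rnase4 fell from 13.12 and 13.21 with 159A to 10.65 and 10.59 (5.85-fold, adjusted p = 0.018, limma), and Ang (angiogenin) fell 8.19-fold (adjusted p = 0.0258) in 3 probe sets that fell by 3.03 to 3.23. Rnase4 and Ang share a locus and can share transcript sequence, so they may not be separate measurements. For Lct, Nyx and Eqtn, 1, 3 and 2 relatives were tested and none was called. The lactase relatives Mgam and Treh were at 2.21 and 2.19, and the acrosome gene Acr at 2.19, in both groups. Glb1, the lactase relative that was tested, stood at 8.37 with Ikaros against 9.12 with 159A (adjusted p = 0.237, limma). The acrosome gene Acrbp stood at 4.11 with Ikaros against 3.28 with 159A (adjusted p = 0.129, limma). At 6 h, 43 relatives were tested in all, 2 were higher and 2 lower (4.65% each, against 2.58% and 3.2% of all genes), with a median of 0.09. At 2 h, 0 were called by limma (6 at an unadjusted p under 0.05). With the replicate number as a block 1 was, Itgal, higher by 0.61 (adjusted p = 0.00944, beside 0.0936 without the block, limma).

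**Figure D4:**
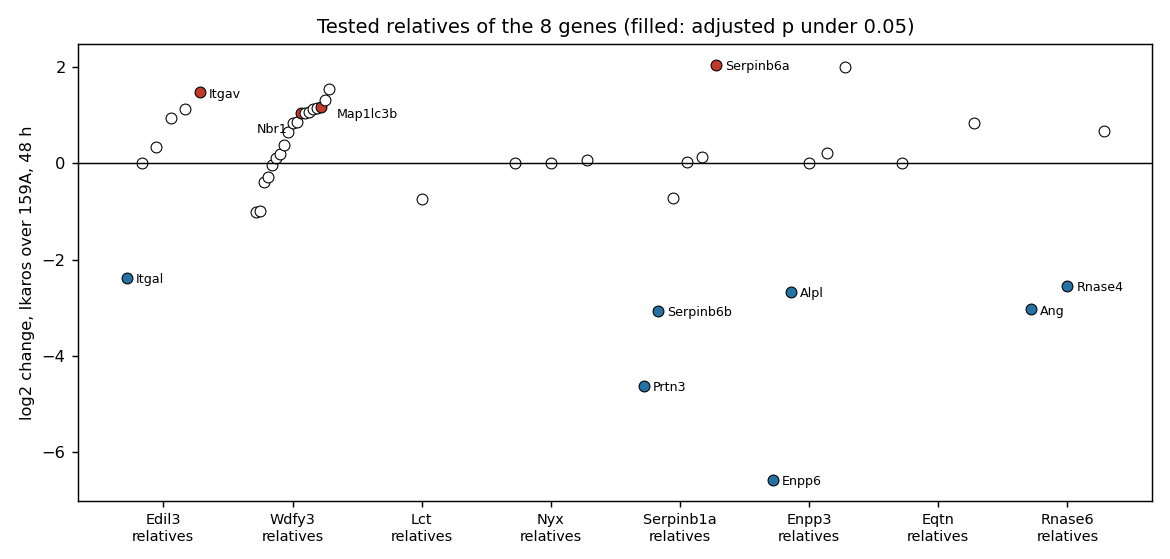
Log2 change at 48 h (vertical axis, Ikaros over 159A) of the 45 tested relatives, 1 point per gene, grouped by the gene they relate to. Filled points have an adjusted p under 0.05 in limma: 4 higher and 7 lower.

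The chromosomal neighbours were read next, since position took no part in the choice. Of the 2 nearest measured genes on each side of the 8 genes (32 genes, RefSeq order), 18 were tested, 1 was higher (5.56%, against 6.38% of all genes) and 4 were lower (22.2%, against 8.47%), with a median of 0.01. The 14 not tested were near the floor in both groups and differed by at most 0.02. Of the 32, 6 are also relatives.

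The neighbour that rose was Hapln1, a link protein of cartilage matrix, next to Edil3. It read 6.97 and 6.39 with Ikaros and 2.46 and 2.22 with 159A, at least 11.2-fold higher (adjusted p = 0.0228, limma), and all 4 of its probe sets were higher, by 2.41 to 4.35. The next gene beyond it, the proteoglycan gene Vcan, was at 2.23 with Ikaros and 2.21 with 159A. The 4 lower neighbours were Serpinb6b beside Serpinb1a, Rnase4 and Ang beside Rnase6, and Jun, the transcription factor gene, beside Eqtn (-1.93, adjusted p = 0.0372). Mcm6, a replication helicase gene next to Lct, stood at 12.61 against 13.77 and was not called (adjusted p = 0.111). Around Wdfy3, Lct, Nyx and Enpp3 no measured neighbour was called at 48 h. In the inducible design 13 neighbours were tested, and 0 were called at 6 h. At 2 h the chemokine receptor gene Cxcr4, the second gene after Lct, was the 1 neighbour called, higher by 0.63 (adjusted p = 0.0165, limma), beside 1.86% of all genes called. This call was lost without Ikaros-ERt2 2 h replicate 1 (adjusted p = 0.0937) or 2 (0.0566) and without vector replicate 1 (0.0554), 2 (0.0925) or 3 (0.0757), all from limma.

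**Figure D5:**
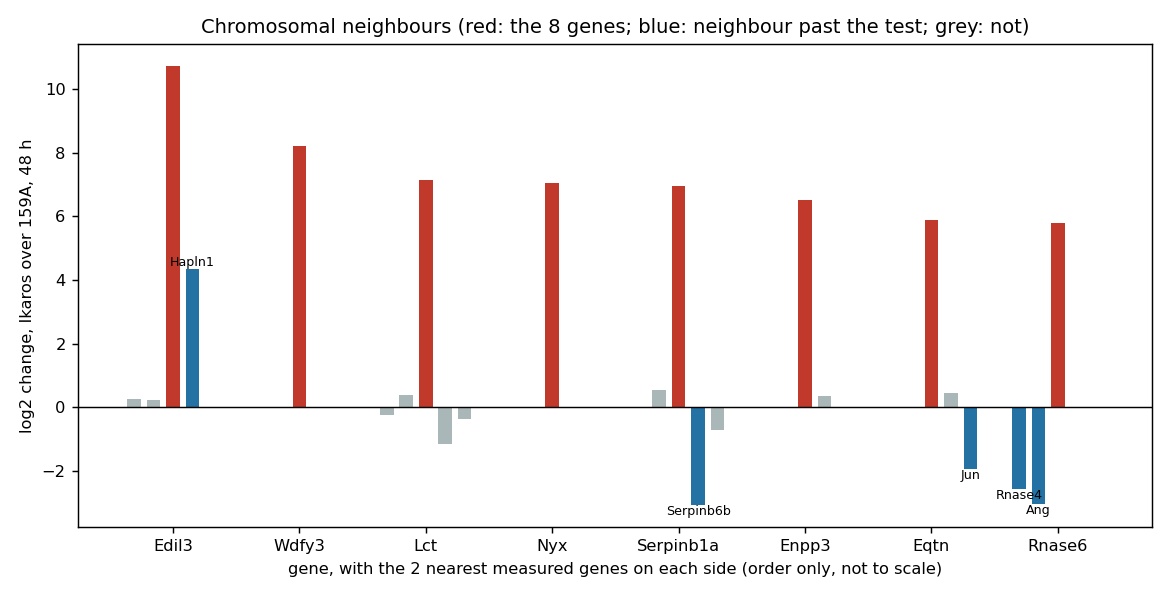
Log2 change at 48 h (vertical axis, Ikaros over 159A) of the 8 genes (red) and of the 2 nearest measured genes on each side (blue where called by limma, grey otherwise), in chromosome order and not to scale. Neighbours whose change is near 0 have bars too small to see, and Hapln1 beside Edil3 is the 1 neighbour that rose.

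Markers of other cell types, among them some in which these proteins are known, were mostly near the floor at 48 h. No markers of vessels, a setting of Edil3, were read. All measured markers of fibroblasts (6 of 6) and intestinal brush border (6 of 6) were near the floor on the 4 arrays. The same held for retinal bipolar cells (5 of 5) and for 5 of 6 sperm acrosome markers. Acrbp, the other acrosome marker, stood at 4.11 with Ikaros against 3.28 with 159A (adjusted p = 0.129, limma). Mast cell and basophil markers were near the floor for 4 of 5, among them Cpa3 and Mcpt8, and Fcer1a stood at 4.39 against 3.34 (adjusted p = 0.127, limma). Their summed level (log2) was 5.32 to 5.33 with Ikaros and 4.76 to 5.04 with 159A. Myeloid markers were near the floor for 5 of 6, with summed levels of 4.93 to 4.95 and 5.35 to 5.68. Natural killer markers were mixed, since Ncr1 and Gzma were at 2.19, Klrd1 rose (9.43 against 5.12, adjusted p = 0.0477) and Nkg7 fell (2.27 against 7.81, adjusted p = 0.0153). Their summed level was 8.98 to 9.94 with Ikaros and 7.94 to 8.21 with 159A. All of these arrays came from the same pre-B cell line, so these are levels of marker genes in that line. Any link of these markers to the rise of the 8 genes was not tested. T-cell (4 of 5), plasmacytoid dendritic (3 of 5) and erythroid markers (3 of 4) were also mainly near the floor.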

How the data were processed

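RNA from 13 samples was measured on 4 Affymetrix Mouse Genome and 9 Gene 1.0 ST arrays. The deposited values are log2 values per probe set. The submitters' processing notes list affy, limma, GCRMA and RMA, without versions and without saying which served which array; other settings are not given in the sources.

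Probe sets were named from platform annotation. The probe set with the highest mean stood for a gene, and genes in the lowest 40% were not tested, which left 10916 and 11963 genes. Tests used limma 3.58.1 under R 4.3.3 (lmFit, then eBayes; a call is a two-sided p under 0.05 after Benjamini-Hochberg adjustment over all tested genes), with all 9 Gene 1.0 ST arrays in 1 fit, and again with every probe set as a row. The fit was also run on simulated data with independent normal noise and no floor. Those settings differ from these arrays, so nothing is read from that run. A fold over a group near the floor compares the brighter mean with the dimmer values raised to 3.19. Groups at the floor can have an SD of 0, which makes p-values too small.

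Arrays correlated within groups at r of 0.987 to 0.995 on Mouse Genome and 0.989 to 0.994 on Gene 1.0 ST, and between groups at 0.967 to 0.973 and 0.989 to 0.993. Titles call the samples biological replicates and do not name separate cultures, so the p-values reflect only how far these samples differ, which may be technical, and so few arrays limit the precision. Same-numbered arrays deviated together at 48 h (r of 0.572). With 2 arrays per group, the 2 pairs must give the same r, so they are not separate values. On Gene 1.0 ST, same-numbered arrays deviated together in the 2 h and vector groups (r of 0.119, 0.128 and 0.235). They did not for 6 h with 2 h (-0.258 to 0.244) or with the vector (-0.096 to 0.106). The labels tie no numbers together, and the fit without the block was kept, with the block as an alternative.

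The 8 genes and the gene lists were chosen with earlier results of these data known. Named beside the 8 genes were the 5 nearest profiles at 48 h, the genes ranked just inside and outside, up to 3 called relatives or neighbours per gene with the smallest p, and Ikzf1. Wdfy4, Nbeal1, Mfge8, Entpd1, Elane, Ctsg, Mgam, Treh, Acr, Acrbp, Glb1, Serpinb1b, Vcan and Mcm6 were named after their values were seen. Alternatives were other filters, normalizations, probe-set rules and eBayes settings, the replicate number as a block, and each array left out.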

Additional observations from a re-analysis of the deposited data

Results flagged for a closer look

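Among the 43 tested relatives, the difference between 2 h and 6 h of OHT itself passed the test for 2 genes, beside 0.903% of all tested genes. The fit of every probe set with no filter called 0% of probe sets for this difference, so neither gene was called there. Enpp6, a relative of Enpp3, was -1.07 ± 0.11 lower at 6 h than at 2 h (log2 change ± SE, n = 3 each, adjusted p = 0.00287, limma), from 7.29, 7.30 and 7.56 at 2 h to 6.32, 6.42 and 6.20 at 6 h. Lyst, a relative of Wdfy3, was 0.37 ± 0.07 higher at 6 h than at 2 h (adjusted p = 0.0408, limma). Both comparisons with the vector use the same vector arrays, and this difference does not involve them.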

How the results depend on the processing

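At 2 h, at 6 h and for 6 h over 2 h, 0 of the 8 genes were called under each alternative that tested them. Most of these tested 3 of the 8, among them the replicate block (0) and each array left out (0 to 0), the stricter filter tested 1, the mean of all probe sets 2, and no filter or every probe set all 8. The replicate block and the left-out arrays were therefore run on all 10 probe sets too, alternatives chosen after seeing the data, which also gave 0 and 0 to 0. Over the alternatives by gene, changes ran from -0.21 to 0.26 and the lowest adjusted p was 0.215. The median 48 h change of the 8 genes was 7.01, and 4.80 with the mean of all probe sets of a gene or 3.53 with the probe set of lowest mean, since both take in sets near the floor; without 1 array it was 6.76 to 7.22. The 48 h calls depend on the design. At an unadjusted p under 0.05 in limma there were 3674 genes in the main fit and 4493 with the replicate block. All genes gave 1621 calls, 185 with no filter on low genes, 77 with every probe set as a row, 0 with the replicate block, which leaves 1 residual degree of freedom, and 0 to 0 with an array left out, where a lone array is assumed to vary like the other group (2165 to 3668 at an unadjusted p under 0.05). The relatives gave 11 calls, then 3 with no filter, 2 with every probe set, 0 with the block and 0 to 0 with an array left out. The neighbours gave 5, then 2, 1, 0 and 0 to 0. Relatives at 6 h gave 4 calls, 3 to 5 with an array left out and 5 with the block. No result reversed. With 2 arrays per group at 48 h, sizes near the floor are bounds.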
